A study of Homo sapiens with 15 samples.

Results

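The genes described here are NFE2L2, which encodes the transcription factor NRF2, and 8 genes that NRF2 is known to activate: GCLC, GCLM, NQO1, HMOX1, TXNRD1, SRXN1, AKR1C1 and OSGIN1. They were taken from a list of NRF2 targets by gene symbol, and each of the 9 symbols matched 1 Ensembl identifier among the 60721 in the count table. All 9 passed the filter on low counts, which left 17457 genes for testing. RNA was measured by sequencing poly(A) RNA from MCF-10A, an established human line of mammary epithelial origin that does not form tumours, in 15 libraries of 5 genotypes with 3 biological replicates each. The unedited genotypes were parental cells and cells given an empty vector, and the edited ones were lines made with guide RNA 1, with guide RNA 2, or with both guides against NF1, which encodes neurofibromin, a protein that switches off RAS. None received a treatment, and all were grown in the same phenol red-free medium with 10% horse serum, 20 ng/mL EGF, 0.5 µg/mL hydrocortisone, 100 ng/mL cholera toxin and 10 µg/mL insulin in 5% CO2. The labels do not say whether a line was 1 clone or a pool, or whether the replicates were separate cultures, so the p-values measure only the spread between these libraries.

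NRF2 is held in check by KEAP1, an adaptor that brings it to a CUL3 and RBX1 ubiquitin ligase for destruction. When oxidants or electrophiles modify KEAP1, NRF2 escapes, pairs with a small MAF protein and binds antioxidant response elements near its target genes, while BACH1 competes for some of the same elements. The targets make glutathione, recycle thioredoxin and peroxiredoxin, reduce quinones and carbonyls and break down haem, and NRF2 is therefore read in epithelial cells through the RNA of these genes.

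Levels are given as CPM, counts scaled to the library total. The library totals lay between 46129559 and 78976917 counts, so that 3 counts correspond to 0.038 to 0.065 CPM. NF1 itself was at 159, 141 and 153 CPM in the parental libraries and at 115, 123 and 133 CPM in the empty-vector libraries. It was at 43.6, 47.3 and 51.3 CPM with guide 1, at 27.0, 31.4 and 29.8 CPM with guide 2 and at 28.9, 29.4 and 26.0 CPM with both guides, so all 9 edited libraries lay below all 6 controls. Replicates differed beyond counting noise in every genotype, and 1 library stood farthest apart. Guide 2 replicate 2 had 31.4 CPM of NF1, as its label implies, but it lay at the far end of the first principal component (46.5% of the variance) from the other guide 2 libraries. Of the genes compared, 76.6% to 76.8% differed between it and the other guide 2 libraries beyond counting noise, against 33.4% between those 2. Other wide pairs were parental replicates 1 and 2, at 65.8%, and guide 1 replicate 3 against its replicates, at 58.3% and 61.8%. The place of guide 2 replicate 2 in each result is given below. Because the samples are bulk RNA, fewer cells of a type and less RNA per cell cannot be told apart.

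Promoter sequence bears on these genes because NRF2 acts through a short DNA element. RefSeq promoter windows (GRCh38.p14, 250 bases before to 50 after a start site) were found for 8 members, in 10 windows, and were searched on both strands for the core of the antioxidant response element, TGACNNNGC. The core was present in windows of 2 members, GCLM and TXNRD1, while 13.3% of all 35116 promoter windows of this length held it. The matched windows are shown because they hold the only copies found, each 5′ to 3′ on the strand of its gene with the match in capitals. They are chr1:93909381-93909680 on the minus strand for GCLM, and chr12:104215529-104215828 and chr12:104286782-104287081 on the plus strand for the first and the other TXNRD1 start.
GCLM promoter: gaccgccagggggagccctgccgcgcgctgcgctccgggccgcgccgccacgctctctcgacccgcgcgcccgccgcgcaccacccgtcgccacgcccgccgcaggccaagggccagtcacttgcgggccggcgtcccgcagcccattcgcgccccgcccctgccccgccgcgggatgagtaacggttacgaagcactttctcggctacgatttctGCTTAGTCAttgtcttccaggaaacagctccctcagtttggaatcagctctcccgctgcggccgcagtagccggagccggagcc
TXNRD1 promoter, first start: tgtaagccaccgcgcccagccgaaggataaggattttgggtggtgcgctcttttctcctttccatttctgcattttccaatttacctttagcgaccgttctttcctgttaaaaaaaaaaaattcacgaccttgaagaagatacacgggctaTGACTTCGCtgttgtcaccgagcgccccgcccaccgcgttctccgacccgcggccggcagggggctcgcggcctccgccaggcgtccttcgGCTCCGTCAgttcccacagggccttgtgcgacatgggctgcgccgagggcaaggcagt
TXNRD1 promoter, other start: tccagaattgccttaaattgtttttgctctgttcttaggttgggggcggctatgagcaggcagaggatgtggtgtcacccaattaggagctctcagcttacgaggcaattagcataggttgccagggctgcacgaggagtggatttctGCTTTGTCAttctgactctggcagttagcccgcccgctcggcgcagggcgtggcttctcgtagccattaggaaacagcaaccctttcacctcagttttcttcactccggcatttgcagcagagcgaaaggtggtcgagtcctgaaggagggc
In GCLM the core was TGACTAAGC on the opposite strand. The first base of the match on the strand shown lay 34 bases before the start, and the distances below are counted in the same way. The first TXNRD1 window held TGACTTCGC on the strand shown at 99 bases before the start and TGACGGAGC on the opposite strand at 8 bases before it, and the other window held TGACAAAGC on the opposite strand at 102 bases before the start. A match is a description of the letters and no evidence that NRF2 binds there, and elements outside these windows were not searched.

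NFE2L2 (ENSG00000116044, chromosome 2, 177227595 to 177392697, minus strand, GRCh38) was the steadiest member. It was at 131, 133 and 129.7 CPM in parental cells and at 138, 138 and 133 CPM with the empty vector. The edited libraries had 134, 134 and 121 CPM with guide 1, 126, 131 and 134 CPM with guide 2 and 131, 128 and 124 CPM with both guides. The pooled edited libraries overlapped the controls, while all 3 parental libraries and all 3 with both guides lay just below the 3 empty-vector libraries (adjusted p = 0.425 and 0.367). The highest library exceeded the lowest by 1.14-fold, and the biological coefficient of variation that edgeR estimated was 7.30%. Edited lines against controls gave a log2 fold change of -0.05 (SE 0.0360, adjusted p = 0.548). An overlapping gene on the same strand, AC019080.1, shares 17.6% of its exonic bases and had at most 3.84 CPM.

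**Figure D1:**
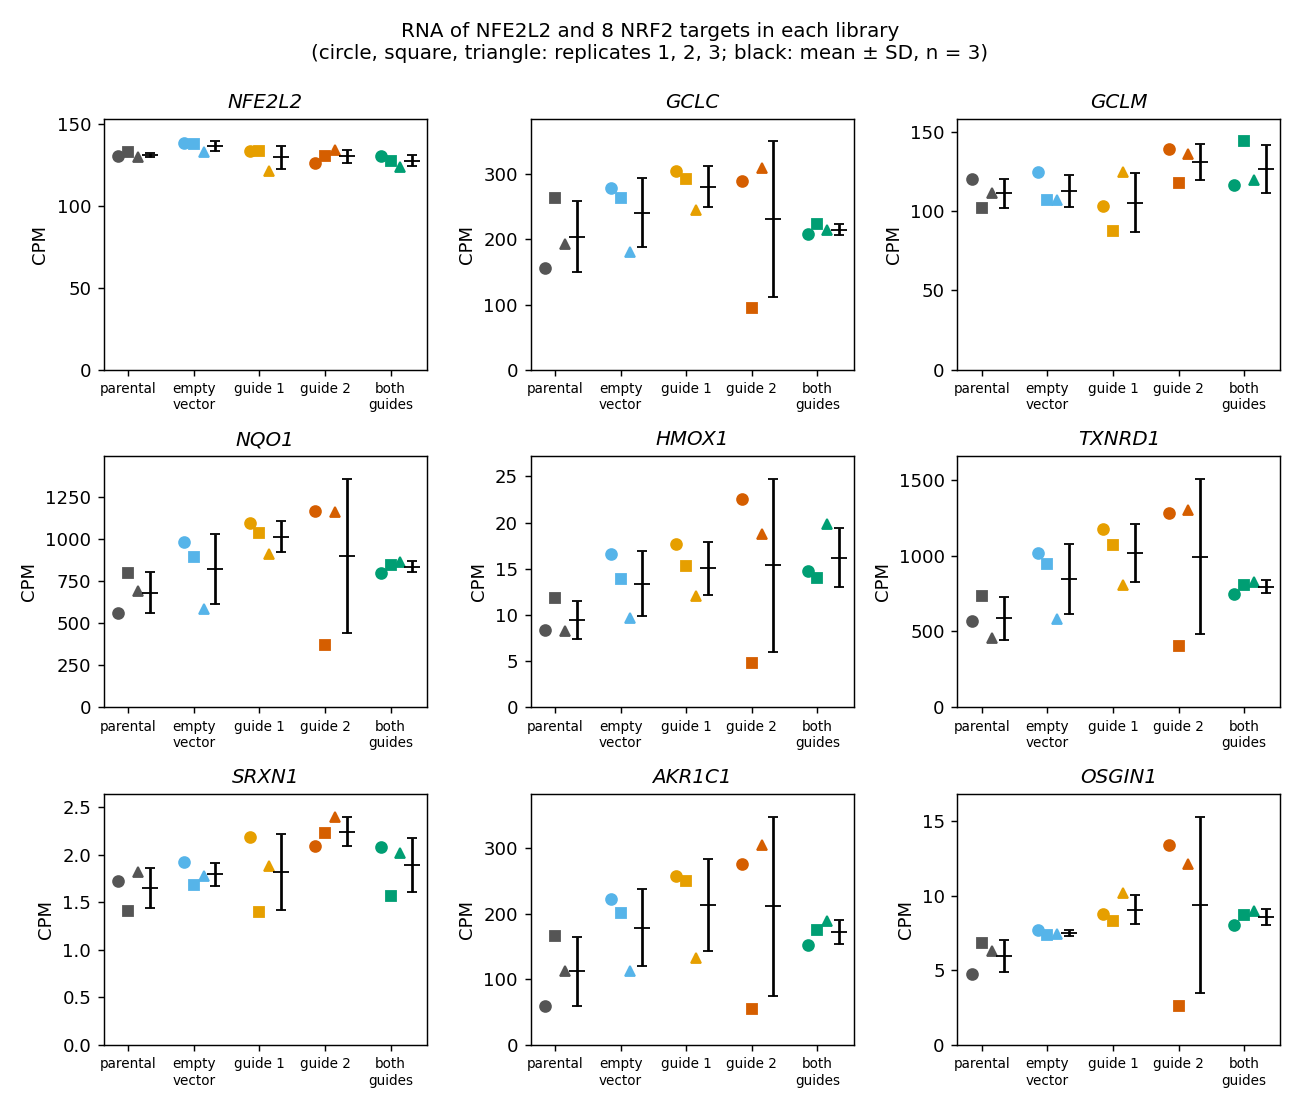
CPM (vertical axes, each starting at 0) of the 9 genes in the 3 libraries of each genotype, with circles, squares and triangles for replicates 1, 2 and 3 and black bars for the mean ± SD (n = 3). NFE2L2 stays between 121 and 138 CPM, while guide 2 replicate 2 (orange square) is the lowest library for GCLC, NQO1, HMOX1, TXNRD1, AKR1C1 and OSGIN1 and not for GCLM or SRXN1.

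GCLC and GCLM encode the catalytic and the modifier subunit of glutamate-cysteine ligase, which performs the first and rate-limiting step of glutathione synthesis. GCLC (ENSG00000001084, chromosome 6, 53497341 to 53616970, minus strand) was at 156, 264 and 192 CPM in parental cells and at 279, 263 and 180.3 CPM with the empty vector. Guide 1 libraries had 305, 292 and 245 CPM, guide 2 libraries 290.4, 94.0 and 309.6 CPM, and libraries with both guides 208, 224 and 214 CPM. Guide 2 thus held both the lowest and the highest GCLC value of the series, and the edited and unedited ranges overlapped. GCLM (ENSG00000023909, chromosome 1, 93885205 to 93909456, minus strand) was at 120.2, 102 and 112 CPM in parental cells and at 125, 107 and 107 CPM with the empty vector. It was at 103, 87.8 and 125 CPM with guide 1, at 139, 118 and 136 CPM with guide 2 and at 116, 144 and 120.0 CPM with both guides. The 2 subunits did not share a profile: guide 2 replicate 2 had less than any other library for GCLC but ranked 8 of 15 from the lowest for GCLM. Their log2 fold changes between edited lines and controls were 0.12 (SE 0.219, adjusted p = 0.834) for GCLC and 0.10 (SE 0.0825, adjusted p = 0.590) for GCLM.

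NQO1 (ENSG00000181019, chromosome 16, 69706996 to 69726951, minus strand) encodes a reductase that converts quinones to hydroquinones and is a classical readout of NRF2. Parental libraries had 558, 797 and 691 CPM and empty-vector libraries 981, 894 and 587 CPM. The gene was at 1096, 1039 and 912 CPM with guide 1, at 1166, 368 and 1161 CPM with guide 2 and at 800.0, 844 and 866 CPM with both guides. Apart from guide 2 replicate 2, all 8 edited libraries lay above all 3 parental libraries, and they overlapped the empty-vector range. With all libraries, edited lines against controls gave 0.29 (SE 0.213, adjusted p = 0.549) on the log2 scale. The antisense gene AC092115.2, with at most 0.448 CPM, overlaps 17.7% of the exonic bases.

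AKR1C1 (ENSG00000187134, chromosome 10, 4963253 to 4983283, plus strand) encodes an aldo-keto reductase of steroids and reactive carbonyls and varied most. It was at 59.9, 165 and 112 CPM in parental cells and at 223, 200.4 and 112 CPM with the empty vector. Guide 1 libraries had 258, 250.4 and 132 CPM, guide 2 libraries 275, 54.3 and 305 CPM, and libraries with both guides 153, 176 and 189 CPM. The highest library exceeded the lowest by 5.61-fold, and every edited range overlapped a control range. Edited lines against controls gave 0.49 (SE 0.340, adjusted p = 0.527). Of the 75-base windows along its longest transcript, 22.2% also occur in other genes, 21.9% in AKR1C2, so reads could be split between these copies and the AKR1C1 level is uncertain. AKR1C2 and AKR1C3, listed among the detoxification genes, were also lowest or near lowest in guide 2 replicate 2, at 184 against 848 and 1034 CPM in the other guide 2 libraries for AKR1C2 and at 46.2 against 179 and 214 CPM for AKR1C3.

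HMOX1 (ENSG00000100292, chromosome 22, 35380361 to 35394214, plus strand) encodes haem oxygenase 1, which opens the haem ring and releases iron. It was at 8.35, 11.9 and 8.23 CPM in parental cells and at 16.6, 13.9 and 9.66 CPM with the empty vector. The edited lines had 17.7, 15.3 and 12.1 CPM with guide 1, 22.5, 4.75 and 18.8 CPM with guide 2 and 14.7, 13.99 and 19.9 CPM with both guides. All edited libraries but guide 2 replicate 2 were above all parental ones, whereas 4 of 9 exceeded the highest control. The log2 fold change of edited lines against controls was 0.47 (SE 0.271, adjusted p = 0.437).

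TXNRD1 and SRXN1 act in thiol recycling. TXNRD1 (ENSG00000198431, chromosome 12, 104215779 to 104350305, plus strand) encodes thioredoxin reductase 1, which uses NADPH to keep thioredoxin reduced. Its level was 571, 735 and 454 CPM in parental cells and 1016, 943 and 585 CPM with the empty vector. It was 1177, 1074 and 805 CPM with guide 1, 1281, 403 and 1299 CPM with guide 2 and 745, 809 and 828 CPM with both guides. Guide 2 replicate 2 was again the only edited library within or below the parental range. Edited lines against controls gave 0.40 (SE 0.231, adjusted p = 0.429).

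SRXN1 (ENSG00000271303, chromosome 20, 646615 to 653370, minus strand), encoding sulfiredoxin, which repairs over-oxidised peroxiredoxins, was the least abundant member. It was at 1.72, 1.41 and 1.82 CPM in parental cells and at 1.93, 1.68 and 1.77 CPM with the empty vector. With guide 1 it was at 2.18, 1.39 and 1.88 CPM, with guide 2 at 2.10, 2.23 and 2.40 CPM and with both guides at 2.08, 1.57 and 2.02 CPM. The 3 guide 2 libraries were above all 6 controls, guide 2 replicate 2 included. Edited lines against controls gave 0.20 (SE 0.123, adjusted p = 0.466). Its level is uncertain, since 85.0% of its exonic bases are shared with an overlapping gene on the same strand, AL121758.1, which had at most 0.0350 CPM.

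OSGIN1 (ENSG00000140961, chromosome 16, 83948282 to 83966332, plus strand), which encodes an oxidative stress-induced inhibitor of growth, was at 4.74, 6.81 and 6.30 CPM in parental cells and at 7.72, 7.38 and 7.41 CPM with the empty vector. Guide 1 libraries had 8.73, 8.28 and 10.2 CPM, guide 2 libraries 13.4, 2.59 and 12.1 CPM, and libraries with both guides 7.999, 8.70 and 8.99 CPM. Hence 8 of 9 edited libraries exceeded every control, and the remaining one was the lowest of the series. Its log2 fold change was 0.43 (SE 0.262, adjusted p = 0.463). An overlapping gene on the same strand, AC009119.2, shares 13.9% of the exonic bases.

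Per kilobase of annotated exon, the order of mean levels over the 15 libraries was NQO1 at 261 CPM, TXNRD1 at 126 CPM, GCLC at 27.1 CPM, NFE2L2 at 21.9 CPM, GCLM at 21.7 CPM, AKR1C1 at 20.3 CPM, HMOX1 at 5.77 CPM, OSGIN1 at 2.34 CPM and SRXN1 at 0.696 CPM. Differences between genes were not tested, so the order among the neighbours GCLC, NFE2L2, GCLM and AKR1C1 is a description only. This order uses the union of all annotated exons and shifts with the transcripts a cell uses. The places of SRXN1 and AKR1C1 in it are uncertain because of the sequence they share with other genes, given above.

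No member was called at an adjusted p under 0.05 in any of the 12 edgeR comparisons over all 15 libraries. A test for any difference between the 5 genotypes called 4.3% of all genes and 0 of 9 members, whose adjusted p lay between 0.343 and 0.757. Against the empty vector, 0 of 9 were called for guide 1, guide 2, both guides and parental cells, where 5.88%, 3.94%, 0.962% and 4.37% of all genes were called. Against parental cells, 0 of 9 were called for guide 1, guide 2 and both guides, beside 0.149%, 0.0516% and 0.195% of all genes. Between edited lines the count was also 0 of 9, beside 0.0401% of all genes for guide 1 against guide 2, 0.275% for both guides against guide 1 and 0.149% for both guides against guide 2. Edited lines against controls called 1.51% of all genes and 0 of 9 members. At an unadjusted p under 0.05 there were 4 member results, namely TXNRD1 for guide 1 against parental cells, TXNRD1 and SRXN1 for guide 2 against parental cells, and GCLM for guide 1 against guide 2. In the same comparisons, in that order, 3471, 1287 and 2648 of all 17457 genes were under this unadjusted threshold. Such results were therefore common among all genes and are a description only. DESeq2 also called 0 members in each of the 12 comparisons, though it called more genes. Of 17457 genes it called 2672 for any genotype difference, where edgeR called 751. It called 1937 for guide 1 against the empty vector and 137 for guide 2 against parental cells.

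The fitted values had a common sign for the targets in some comparisons and mixed signs in others. In edited lines against controls all 8 targets had a positive log2 fold change, with a median of 0.35, while the median of all genes tested was 0.00985. Parental against empty-vector cells gave a negative value for all 8 targets, with a median of -0.33, though both genotypes are unedited. Against the empty vector, 7 of 8 targets were positive with guide 1 (median 0.23), 7 of 8 with guide 2 (median 0.21) and 5 of 8 with both guides (median 0.03). These comparisons share libraries, and the targets are not independent of each other. The order of the genotype means of NQO1 was parental, empty vector, both guides, guide 2 and guide 1, from 682 ± 120 to 1015 ± 94.0 CPM (SD, n = 3), and no neighbours in it passed the test.

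Most of the variation lay between libraries of 1 genotype. The genotypes accounted for 15.5% to 28.4% of the variance in log2 CPM of GCLC, NQO1, HMOX1, TXNRD1, AKR1C1 and OSGIN1, and for 41.3% to 44.3% in NFE2L2, GCLM and SRXN1. With 5 genotypes of 3 libraries such a share is sizeable even where genotypes do not differ, and the share over all genes was not computed. These shares therefore do not show a genotype effect, and no member passed the test for any genotype difference. Guide 2 replicate 2 was the lowest of 15 libraries for each of the first 6, and the mean of the other guide 2 libraries was 3.19-fold higher for GCLC, 3.16-fold for NQO1, 4.35-fold for HMOX1, 3.20-fold for TXNRD1, 5.34-fold for AKR1C1 and 4.93-fold for OSGIN1. The corresponding ratios for NFE2L2, GCLM and SRXN1 were 0.995, 1.17 and 1.01. Across the 15 libraries the 6 genes rose and fell together, with pairwise Pearson r from 0.82 (TXNRD1 and OSGIN1) to 0.97 (GCLC and NQO1), given as a description and including guide 2 replicate 2. GCLM and SRXN1 had r from -0.13 to 0.26 with those 6 and 0.48 with each other.

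**Figure D2:**
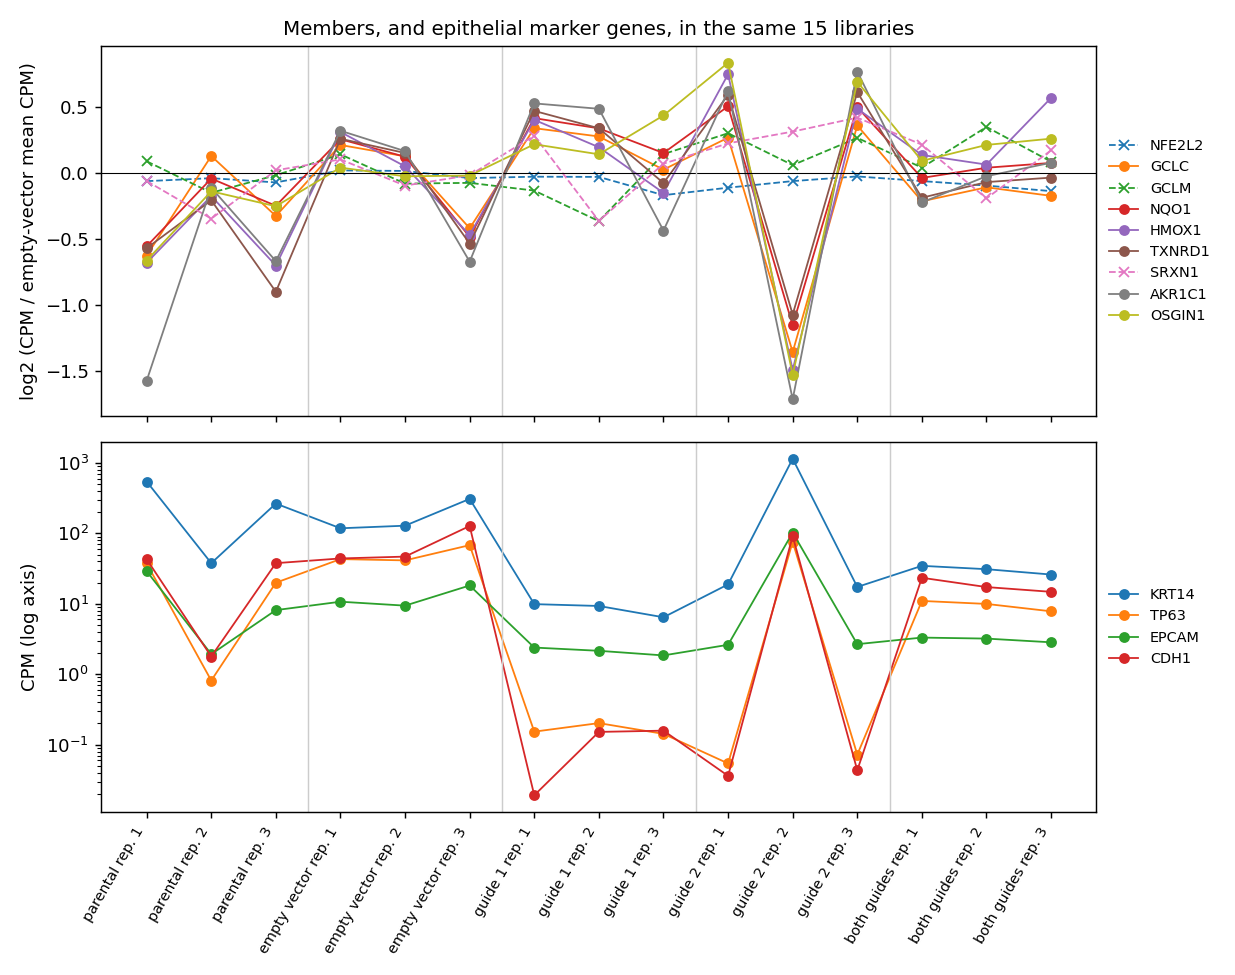
Upper panel: log2 ratio of each gene's CPM to its empty-vector mean in the 15 libraries, with dashed lines for NFE2L2, GCLM and SRXN1. Lower panel: CPM of 4 epithelial markers on a log axis, where values at or under 0.065 CPM are at the counting floor. Guide 2 replicate 2 is lowest for 6 targets and highest for KRT14, at 1147 CPM, TP63, at 75.8 CPM, and EPCAM, at 103 CPM. CDH1 is at 91.4 CPM in it and is highest in empty-vector replicate 3, at 127 CPM.

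Epithelial markers also varied between libraries of 1 genotype. KRT14, a basal keratin, was at 545, 37.8 and 265 CPM in parental cells, at 118, 129 and 309 CPM with the empty vector and at 9.90, 9.32 and 6.44 CPM with guide 1. It was at 18.9, 1147 and 17.4 CPM with guide 2 and at 34.6, 31.0 and 26.0 CPM with both guides. In 4 of 5 genotypes the library with the highest KRT14 (parental replicate 1, empty-vector replicate 3, guide 2 replicate 2 and replicate 1 of both guides) was the lowest of its genotype for GCLC, NQO1 and AKR1C1. The same held in 3 of 5 genotypes for TXNRD1 and OSGIN1, in 2 for HMOX1 and GCLM and in 0 for SRXN1. With guide 1, the library with the highest KRT14 (replicate 1) was the highest for GCLC, NQO1, HMOX1, TXNRD1, AKR1C1 and SRXN1. Other markers did not all order the guide 1 libraries this way. EPCAM was also highest in replicate 1, at 2.39 CPM, but KRT5 was highest in replicate 2, at 1001 CPM, and ITGA6 in replicate 3, at 229 CPM. These counts of genotypes were made for KRT14 alone. CDH1, which encodes E-cadherin, was at 0.0361, 91.4 and 0.0434 CPM in the 3 guide 2 libraries, the first and the last at or under the counting floor. The summed level of all 8 epithelial markers, each detected, was 1384 to 5166 CPM in parental cells, 3463 to 5355 CPM with the empty vector, 1021 to 1337 CPM with guide 1, 1131 to 9249 CPM with guide 2 and 1692 to 1941 CPM with both guides. The part of this in the NRF2 target levels was not tested. Markers of other cell types were scarce in every library, with sums of at most 21.0 CPM for 5 fibroblast genes, 6.99 CPM for 4 leukocyte genes (CD3E had no count), 2.08 CPM for 3 endothelial genes and 0.383 CPM for 2 adipocyte genes (ADIPOQ had no count). The 10 proliferation genes summed to 3665 to 3975 CPM in parental cells, 2206 to 2666 CPM with the empty vector, 2109 to 3929 CPM with guide 1, 3550 to 3784 CPM with guide 2 and 3397 to 3582 CPM with both guides.

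Without guide 2 replicate 2 several calls changed. This library was left out as 1 of 15 removals in turn, and because it has the lowest values of 6 targets its removal raises the edited mean. All comparisons of a gene share 1 estimate of the spread, which this library also enters. For OSGIN1 in edited lines against controls the SE was 0.262 with all libraries and 0.0853 without it. The test for any genotype difference then called NQO1, HMOX1, TXNRD1 and OSGIN1, 4 of 9, beside 23.7% of all 17849 genes tested. The same 4 were called higher in edited lines than in controls, beside 6.63% of all genes called higher. OSGIN1 gave a log2 fold change of 0.57 (SE 0.0853, adjusted p = 0.000772), and its 8 edited libraries (7.999 to 13.4 CPM) lay above all 6 controls (4.74 to 7.72 CPM). HMOX1 gave 0.60 (SE 0.144, adjusted p = 0.0123), TXNRD1 0.52 (SE 0.136, adjusted p = 0.0185) and NQO1 0.41 (SE 0.107, adjusted p = 0.0188), each with 8 of 8 edited libraries above the parental range and overlapping the empty-vector range. AKR1C1, with 0.63 (SE 0.224, adjusted p = 0.0678), and GCLC, with 0.24 (SE 0.117, adjusted p = 0.177), did not pass, nor did GCLM, SRXN1 or NFE2L2. The share of all genes whose ranges separate in this way was not counted, here or in the accounts of single genes above. Whether such separation is unusual for these genes is therefore not known.

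**Figure D3:**
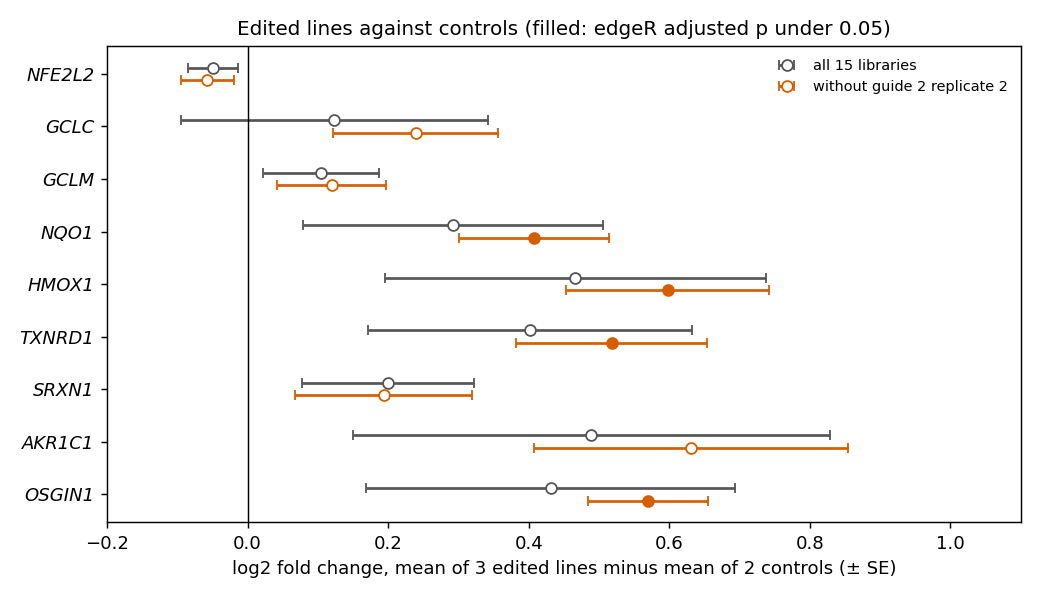
Log2 fold change (± SE) of each gene, mean of the 3 edited lines minus mean of the 2 unedited genotypes, from edgeR with all 15 libraries (grey) and without guide 2 replicate 2 (orange), filled where the adjusted p was under 0.05. No grey point is filled, and NQO1, HMOX1, TXNRD1 and OSGIN1 are filled in orange, at 0.41, 0.60, 0.52 and 0.57.

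Single lines without that library were called mainly against parental cells. For guide 2, now 2 libraries, 5 of 9 members were called higher than in parental cells, beside 2.91% of all genes: AKR1C1 by 1.38 (adjusted p = 0.0437), TXNRD1 by 1.15 (adjusted p = 0.0121), HMOX1 by 1.14 (adjusted p = 0.0169), OSGIN1 by 1.12 (adjusted p = 0.00107) and NQO1 by 0.79 (adjusted p = 0.0226) on the log2 scale. For guide 1, 4 of 9 were called higher, beside 7.05% of all genes, with values of 0.82 for TXNRD1 (adjusted p = 0.0225), 0.69 for HMOX1 (adjusted p = 0.0494), 0.63 for OSGIN1 (adjusted p = 0.0102) and 0.60 for NQO1 (adjusted p = 0.0300). For both guides only OSGIN1 was called, at 0.54 (adjusted p = 0.0430), beside 1.55% of all genes called higher. Against the empty vector, 1 member was called, OSGIN1 with guide 2, at 0.74 (adjusted p = 0.00392), beside 5.04% of all genes called higher, and 0 of 9 were called for guide 1 or both guides. The comparisons of guide 1 or both guides with parental cells use no guide 2 library, and their log2 fold changes were nearly the same with it (0.60 in both fits for NQO1 with guide 1). The SE of that NQO1 value was 0.329 with all libraries and 0.160 without guide 2 replicate 2. In guide 1 against parental cells the count over all genes rose from 26 to 2591 with the removal. The part of the smaller SE in this rise was not tested.

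A fit that kept all libraries but gave less weight to variable ones, voom with sample quality weights, called 8 of 9 members in the test for any genotype difference, all but SRXN1, beside 70.9% of all genes. It called 6 members higher in edited lines than in controls, beside 20.5% of all genes called higher: TXNRD1 at 0.64, HMOX1 at 0.63, AKR1C1 at 0.60, OSGIN1 at 0.50, NQO1 at 0.36 and GCLC at 0.24 on the log2 scale. The same fit called 6 members lower in parental than in empty-vector cells, both unedited, beside 18.5% of all genes called lower: TXNRD1 at -0.98, AKR1C1 at -0.86, HMOX1 at -0.79, GCLC at -0.44, NQO1 at -0.40 and NFE2L2 at -0.11.

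The RNA of NFE2L2 was compared with that of each target across the 15 libraries, in 8 relations. Pearson r lay between -0.41 (GCLM) and 0.19 (AKR1C1), with permutation p from 0.131 to 0.956 and adjusted p from 0.879 to 0.956. Spearman rho lay between -0.43 and 0.43, with permutation p from 0.109 to 0.984 and adjusted p from 0.435 to 0.984. Without the 2 libraries farthest from the NFE2L2 median, guide 1 replicate 3 and empty-vector replicate 1, r was -0.54 for GCLM and 0.21 for GCLC, the lowest and highest of the 8. Deviations from the genotype means gave r from -0.49 (GCLM) to 0.32 (AKR1C1). No relation passed, over an NFE2L2 range of 1.14-fold.

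Genes outside the list with the most similar profiles were found by Pearson r over the 15 libraries among genes with an average log2 CPM of at least 1. The mean standardised level of the 8 targets was followed most closely by FMN2 (r = 0.96), FICD (r = 0.95), ARHGAP29 (r = 0.94), DNER (r = 0.94) and APOL2 (r = 0.94). For single members the closest genes were WFS1 for GCLC (r = 0.99), TRIM16L for NQO1 (r = 0.98), AKR1C3 for AKR1C1 (r = 0.97), ANXA5 for OSGIN1 (r = 0.96), RUSF1 for HMOX1 (r = 0.96) and LRRC23 for TXNRD1 (r = 0.96). GCLM was closest to SPRYD7 (r = 0.90), NFE2L2 to NOTCH3 (r = 0.84) and SRXN1 to HMGA2 (r = 0.73). These are the highest r values over all such genes, they include guide 2 replicate 2, and they carry no test.

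The wider pathway was read from 8 lists with 67 genes, of which 66 were matched to an identifier and 63 were tested. With all libraries, 3 of the 63 differed between genotypes, namely GSK3B, TSKU and UGT1A6, a share close to the 4.3% of all genes called. GSK3B, a kinase that marks NRF2 for KEAP1-independent destruction, was at 155, 155 and 172 CPM with the empty vector and between 120.3 and 136 CPM in the 9 edited libraries, and parental libraries had 132 to 140.1 CPM. It was lower than in the empty vector with guide 1 by a log2 fold change of -0.36 (SE 0.0714, adjusted p = 0.0138) and with guide 2 by -0.33 (SE 0.0714, adjusted p = 0.0246). It was the only one of the 63 called in edited lines against controls, at -0.20 (SE 0.0459, adjusted p = 0.0481). TSKU, a secreted proteoglycan gene among the other reporters, was at 35.3, 36.6 and 35.5 CPM with the empty vector and at 21.5 to 33.1 CPM in all other genotypes, parental cells included. It was lower than in the empty vector with guide 1, at -0.45 (adjusted p = 0.0386), with both guides, at -0.57 (adjusted p = 0.0371), and in parental cells, at -0.50 (adjusted p = 0.0292). UGT1A6, a glucuronosyltransferase, was close to the counting floor and shares exons with the other UGT1A genes. It was at 0.385, 0.313 and 0.187 CPM with the empty vector and at 0.0351, 0 and 0.108 CPM in parental cells, also unedited. It was at most 0.0191 CPM with guide 1, 0.0544 CPM with guide 2 and 0.0867 CPM with both guides.

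Against the empty vector, 4 of the 63 pathway genes were called for guide 1, 3 for guide 2, 1 for both guides and 2 for parental cells. Beside 5.88%, 3.94%, 0.962% and 4.37% of all genes, these counts are near the background and show nothing particular to the pathway. Those beyond GSK3B, TSKU and UGT1A6 were GSR, KEAP1 and ME1, named after their values were seen. GSR, glutathione reductase, was at 112, 112 and 83.7 CPM with the empty vector and higher with guide 1, at 149.8, 155 and 157 CPM (log2 fold change 0.58, adjusted p = 0.0183), and with guide 2, at 158, 120.3 and 163 CPM (0.51, adjusted p = 0.0356). KEAP1 was at 75.05, 74.1 and 72.2 CPM with the empty vector and at 94.7, 90.4 and 92.8 CPM with guide 2 (0.32, adjusted p = 0.0169), where guide 2 replicate 2 was close to its replicates. ME1, malic enzyme 1, was lower in parental cells than with the empty vector, at 87.1, 90.1 and 97.4 against 129.6, 123 and 116 CPM (-0.45, adjusted p = 0.0453). No gene of the thioredoxin, haem and iron, or other antioxidant enzyme lists was called in these comparisons.

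**Figure D4:**
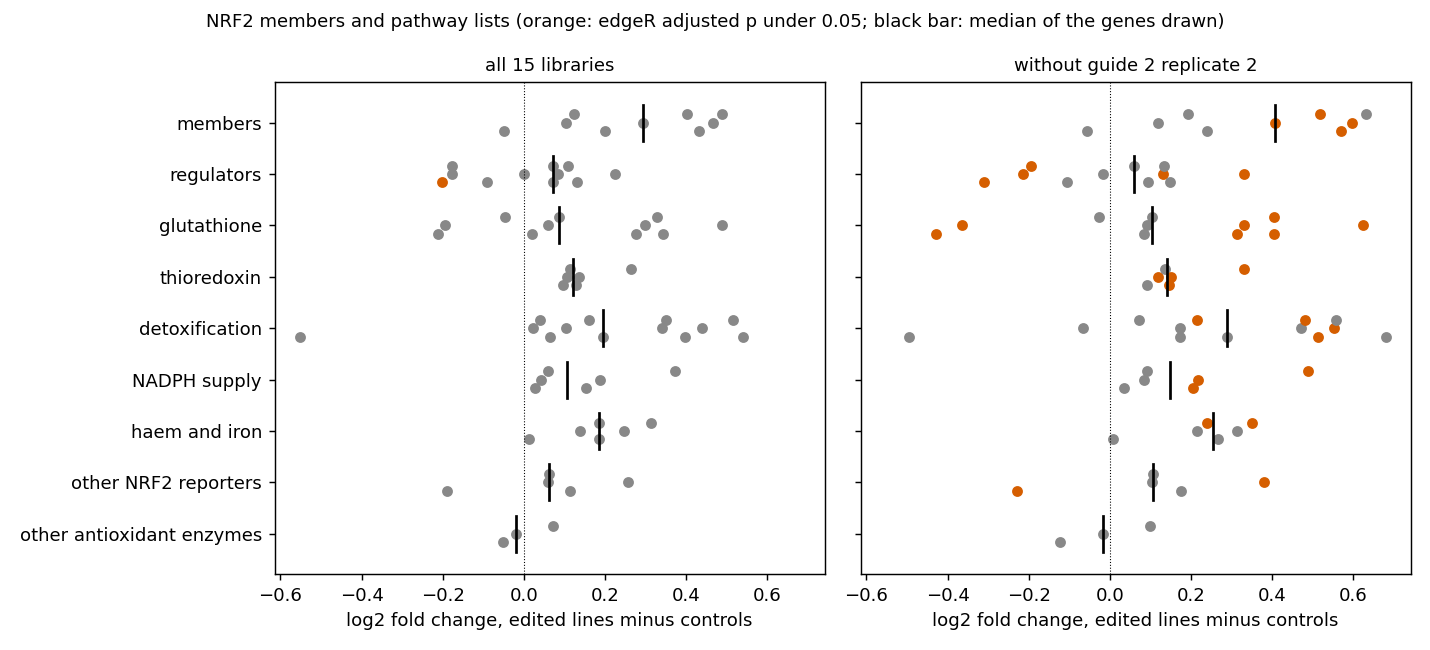
Log2 fold change of edited lines minus controls for the members and the 8 pathway lists, with all 15 libraries (left) and without guide 2 replicate 2 (right), orange where the edgeR adjusted p was under 0.05 and with a black bar at the median of the genes drawn. UGT1A6 and GPX2, both under 1 CPM in every library, are not drawn. The left panel holds 1 orange point (GSK3B, at -0.20).

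Without guide 2 replicate 2, 29 pathway genes were called in edited lines against controls, 21 higher and 8 lower, beside 6.63% of all genes called higher and 11.4% called lower. The glutathione list had 5 higher and 3 lower, detoxification 4 and 1, the thioredoxin list 4 and 0, NADPH supply 3 and 0, haem and iron 2 and 0, regulators 2 and 3, other reporters 1 and 1, and other antioxidant enzymes 0. The genes named from this fit were ranked as for all libraries and chosen after their values were seen. The higher genes included GSS, glutathione synthetase, at 0.31 (adjusted p = 0.00126), GSR at 0.33 (adjusted p = 0.00305) and MGST1, a microsomal glutathione transferase, at 0.40 (adjusted p = 0.00481). Among the carbonyl and epoxide enzymes, PTGR1 was higher by 0.51 (adjusted p = 0.00573), EPHX1 by 0.55 (adjusted p = 0.00620) and CBR1 by 0.21 (adjusted p = 0.00581). The same ranking names 2 scarce genes called lower. GPX2, a glutathione peroxidase, was at 0.224 to 0.560 CPM with the empty vector, at most 0.123 CPM in parental cells and 0 in all 3 guide 1 libraries (adjusted p = 0.00536). UGT1A6, with the levels given above, had an adjusted p of 0.0156. The remaining lower glutathione genes, outside that ranking, were SLC3A2, a subunit of the cystine transporter, at -0.43 (adjusted p = 0.00930) and GSTP1, a glutathione transferase, at -0.37 (adjusted p = 0.00599). TXNRD2, the mitochondrial thioredoxin reductase, was higher by 0.33 (adjusted p = 0.000777) and TXN, thioredoxin, by 0.15 (adjusted p = 0.0277). TALDO1, a pentose phosphate enzyme, gave 0.22 (adjusted p = 0.00501), SLC48A1, a haem transporter, 0.35 (adjusted p = 0.0140) and FECH, ferrochelatase, 0.24 (adjusted p = 0.0112). SQSTM1, an autophagy receptor that binds KEAP1, was higher by 0.33 (adjusted p = 0.0128) and KEAP1 by 0.13 (adjusted p = 0.0352), while GSK3B was lower, at -0.19 (adjusted p = 0.00613), as was TSKU, at -0.23 (adjusted p = 0.0364). The remaining lower regulators, outside that ranking, were BACH1, at -0.21 (adjusted p = 0.0371), and MAFK, a small MAF gene, at -0.31 (adjusted p = 0.0417). Against parental cells, 21 pathway genes were called higher and 1 lower with guide 1, where 7.05% of all genes were called higher and 7.47% lower. With guide 2, 15 were called higher and 0 lower, where 2.91% of all genes were called higher. With both guides 0 of the 63 were called, where 1.55% of all genes were called higher. Beside so small a share, 0 calls do not show that this line differed from the single-guide lines. Against the empty vector the same fit was not one-sided: 6 pathway genes were higher and 9 lower with guide 1 (6.47% and 11.7% of all genes), 8 and 6 with guide 2 (5.04% and 9.42%), and 1 and 5 with both guides (1.71% and 4.99%). Parental cells themselves had 2 higher and 10 lower than the empty vector (5.24% and 8.68%). In the same fit 7 of 8 epithelial markers were called lower in edited lines than in controls, and their part in these counts was not tested.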

How the data were processed

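Poly(A) RNA of 15 MCF-10A libraries was purified on RNeasy columns and made into libraries with a KAPA mRNA HyperPrep kit, per the labels' protocols. The authors deposited whole-number read counts per Ensembl gene. They also deposited CPM, which equal the counts scaled to the library total to within 4.91e-11. The submitters' processing notes name Trim Galore 0.6.0, STAR 2.7.8a and GRCh38, and the counting program, annotation and use of strand are not given in the sources used here. Reads of overlapping or antisense genes can therefore be shared.

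Groups come from the sample titles. Symbols were matched to identifiers by a table of gene names, and positions come from GENCODE release 29. Counts were tested with edgeR 4.0.16 in R 4.3.3 (filterByExpr, TMM, quasi-likelihood, 1 group-means model with 10 residual degrees of freedom), two-sided, with Benjamini-Hochberg adjustment over all tested genes and an adjusted p under 0.05. The standard error is the absolute log2 fold change over the square root of F. Alternatives were RLE scaling, no filter, a replicate block, DESeq2 1.42.0, voom with sample quality weights (limma 3.58.1), only the 2 groups compared, and leaving out each library. Correlations used log2 CPM (prior count 2) and 100000 permutations in scipy 1.17.1. The edgeR procedure was tested on simulated data. Replicate libraries differed in 24.6% to 76.8% of genes beyond counting noise, so none was a duplicate.

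The members and lists were chosen with earlier results of these data known. Named genes are the 9 members, NF1, at most 4 genes of each pathway list with the lowest p among those called in the test for any genotype difference, and the genes with the most similar profiles. Some genes outside this rule are also named, with their values. SOD2, in the list of other antioxidant enzymes, was not matched to an identifier and is not analysed here. Floors of 3 counts describe sampling of reads alone, because PCR copies cannot be told from separate molecules here.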

Additional observations from a re-analysis of the deposited data

How the results depend on the processing

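The count of members called stayed at 0 in all 12 comparisons with RLE scaling, no filter on low counts, DESeq2 and the replicate block. For any genotype difference RLE scaling called 754 of 17457 genes and the fit with no filter 821 of 35374. DESeq2 called 2672 of 17457 and the replicate block 299 of 17457. Libraries with the same replicate number were on average no more alike than others. Deviations from the genotype means correlated at a mean of -0.0498 over 30 pairs with the same number and 0.0276 over 60 pairs with other numbers. Single r values ran from -0.749 to 0.279 and from -0.595 to 0.690. With so wide a spread, this check does not decide whether the libraries were paired by number. With voom and sample quality weights, the test for any genotype difference called 8 of 9 members beside 70.9% of all genes. Edited lines against controls called 6 members beside 42% of all genes. Against parental cells the counts were 7 for guide 2 (32.5% of all genes), 6 for guide 1 (52.9%) and 4 for both guides (21.3%). Against the empty vector they were 6 for parental cells (36.3%), 5 for guide 2 (33.2%), 2 for both guides (26.7%) and 0 for guide 1 (42.5%). Both guides called 5 against guide 1 (46.5%) and 5 against guide 2 (15.2%), and guide 1 against guide 2 called 2 (20.2%). With only the 2 groups compared in the fit, both guides against guide 1 called 1 member, GCLC, beside 7.67% of all genes.

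Leaving out 1 library at a time gave counts of 0 to 4 for any genotype difference, 0 to 4 for edited lines against controls, 0 to 4, 0 to 5 and 0 to 1 for guide 1, guide 2 and both guides against parental cells and 0 to 1 for guide 2 against the empty vector. Each count above 0 came from leaving out guide 2 replicate 2, and the cause was not tested. Of 450 single log2 fold changes under these removals, 434 kept their direction and side of the threshold, 15 passed it and 1 reversed: OSGIN1 for guide 2 against the empty vector was -0.0505 without guide 2 replicate 1, and its range was -0.0505 to 0.736. Correlations with NFE2L2 near 0 changed sign: HMOX1 was 0.0875 with TMM factors and -0.0973 to 0.119 over the removals, NQO1 was -0.0261 to 0.144 over the removals, and SRXN1 was 0.0128 with the replicate block. SRXN1 rested on the fewest reads of the members, and 3 libraries per genotype limit all comparisons.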
